A study of Homo sapiens with 6 samples.

Results

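PPP1R14B and the subunits of protein phosphatase 1 were followed in RNA that came down with Ago2 from HEK293 cells. The set held 10 of the 48162 genes in the table, picked by name: the inhibitor paralogs PPP1R14A, PPP1R14B and PPP1R14C, the catalytic subunits PPP1CA, PPP1CB and PPP1CC, the inhibitors PPP1R2, PPP1R8 and PPP1R11, and the myosin-targeting subunit PPP1R12A. PPP1R14B led the set because DESeq2 had called it lower under the mimic in these same libraries, so its difference between mimics is given as a description and without a test. The other members were listed as its paralogs and partners. Of the 10 genes, 9 passed the filter on low counts, and PPP1R14A did not.

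HEK293 cells are an established line from human embryonic kidney. All were transfected with Flag-Ago2, a tagged form of the Argonaute that holds microRNAs in the silencing complex, together with either mir-219 mimics (3 libraries) or negative control mimics (3 libraries), and the complexes were pulled down with anti-Flag agarose. Each group had 1 library dated 22 August, 1 dated 5 September and 1 dated 18 September. The tagged Ago2 was overexpressed in both groups, and the labels do not say whether the dates were separate cultures, so p-values measure only how far these samples differ among themselves, part of which may be technical. Input RNA was not used here, so less of a transcript in the cells, fewer cells holding it, and less of it bound to Ago2 cannot be told apart.

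Protein phosphatase 1 removes phosphate from serine and threonine residues of many proteins. Its catalytic subunits have little selectivity alone and work bound to regulatory subunits that choose the substrate, the place in the cell, or block the active site. The PPP1R14 proteins are small inhibitors that become potent when phosphorylated, and they act on the myosin phosphatase, the complex of the beta catalytic subunit with PPP1R12A that relaxes actomyosin by dephosphorylating myosin light chain. MicroRNAs guide Ago2 to messenger RNAs mainly through pairing of their seed.

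The labels name mir-219 without its mature strand. The mature forms of the miR-219a hairpins in RefSeq (GRCh38.p14) are shown because the mimic is the labelled difference between the groups, with the seed, bases 2 to 8 from the 5′ end, in capitals. The 5p strand is the same from both hairpins, at chr6:33207855-33207875 (plus strand) and chr9:128392676-128392696 (minus strand), whereas the 3p strands differ in their seeds.
hsa-miR-219a-5p: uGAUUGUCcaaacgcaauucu
hsa-miR-219a-1-3p: aGAGUUGAgucuggacgucccg
hsa-miR-219a-2-3p: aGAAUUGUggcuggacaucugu
Transcript sequences were not used here, so no site for these seeds in a member is described.

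Libraries held 20233819 to 34408699 counts. AGO2 took 10.6 to 18.0% of the counts and mitochondrially encoded genes 5.66 to 13.3%. All 7 HEK293 markers (VIM, NEFM, NEFL, INA, KRT8, KRT18 and PAX2) had counts in every library. Transcripts of other cells were uneven: the intestinal and plasma cell markers summed to 10.3 CPM (counts scaled to library size) in the mimic library of 22 August and to 60.8 CPM in its control, to 23.8 and 14.5 CPM on 5 September, and to 43.4 and 62.9 CPM on 18 September. Haemoglobin genes reached 699.6 CPM in 1 library, the control of 5 September, and at most 0.190 CPM elsewhere. The part of these transcripts in any difference below was not tested.

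PPP1R14B (ENSG00000173457, chr11:64011956-64014413 of hg19, minus strand), a ubiquitous member of the PPP1R14 inhibitor family, was less abundant in the precipitates from mimic-treated cells, at 0.563 times its control level. It had 36.4, 29.6 and 41.1 CPM under the mimic on 22 August, 5 September and 18 September, and 67.6, 53.9 and 68.5 CPM under the control. The highest mimic library lay below the lowest control library, and both groups were lowest on 5 September. Means were 35.7 ± 5.74 CPM under the mimic against 63.4 ± 8.19 CPM under the control (SD, n = 3 each), a log2 difference of −0.83 (SE 0.16). The log2 ratios were −0.89, −0.86 and −0.74 in date order. These came from 841 to 1823 counts per library, where counting error alone is at most 3.45%.

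Because this difference chose the gene, nothing is read from its place among the others. In the same contrast DESeq2 called 5 of 16223 genes (0.0308%) and the quasi-likelihood F test of edgeR called 0 of 16233 (0%), with 1.26% lower and 1.74% higher at an unadjusted p under 0.05, while limma-voom also called 0. Over all tested genes the median log2 difference was 0.00. Groups lay apart in this direction, with every mimic library under every control library, for 3.84% of tested genes, and in the opposite direction for 4.22%. Genes of similar length to PPP1R14B (659 to 1473 bases, n = 1776) had median log2 ratios of −0.27, 0.10 and −0.09 in date order, so short transcripts as a class leaned lower on 22 August and higher on 5 September. With the trend of each library with gene length removed, PPP1R14B stood at −0.79.

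**Figure D1:**
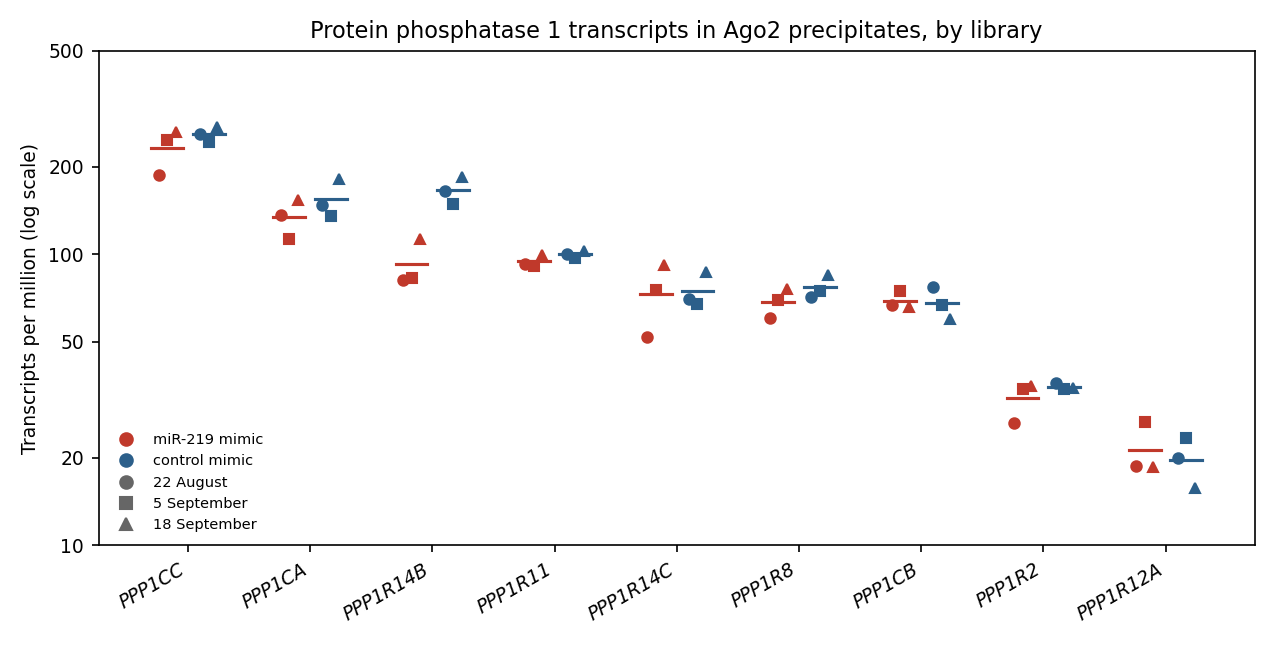
TPM (counts scaled to gene length and library size, log scale) of 9 members in each of the 6 libraries, ordered by mean level; colours mark the mimic, marker shapes the sample date, and bars the mean of 3 libraries. The mimic and control points of PPP1R14B are apart (81.8 to 113 against 149 to 184), while those of every other gene shown overlap.

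The paralog PPP1R14C showed no such difference. PPP1R14C (ENSG00000198729, chr6:150464212-150571493), an inhibitor of the same family best known from brain, had 50.8, 59.4 and 73.0 CPM under the mimic against 63.2, 53.4 and 71.2 CPM under the control in date order. The groups overlapped. Its log2 difference was −0.04 (SE 0.17, 95% CI −0.40 to 0.32, edgeR adjusted p = 0.999). By date its log2 ratio was −0.32, 0.15 and 0.04, so it was lower under the mimic on 22 August only.

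PPP1R14A (ENSG00000167641, chr19:38741877-38747231), the smooth muscle inhibitor of myosin phosphatase, was near the limit of detection, with 8, 4 and 8 counts under the mimic against 13, 5 and 0 under the control. The 0 of the control library of 18 September allows up to 0.142 CPM (3 counts, counting error only), so no fold is given. The gene lies whole inside SPINT2 on the other strand (791 to 1556 counts), and the strand setting of the counting is not given in the sources used here, so its value is uncertain. Smooth muscle markers summed to 25.5 to 36.3 CPM per library. The gut paralog PPP1R14D had between 1 and 4 counts per library.

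Compared per length and within each library, PPP1R14B took 60.8, 52.1 and 54.9% of the summed PPP1R14A to PPP1R14C level in TPM, which scales counts to gene length and library size, under the mimic against 69.7, 68.7 and 67.8% under the control. PPP1R14B thus remained the most abundant of the family in all 6 libraries. Its TPM was 1.57, 1.09 and 1.23 times that of PPP1R14C under the mimic against 2.35, 2.21 and 2.11 times under the control.

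The catalytic subunits had overlapping groups. PPP1CC (ENSG00000186298, chr12:111157485-111180744), the gamma isozyme, had 236, 253 and 272 CPM under the mimic against 303, 250.3 and 292 CPM under the control in date order (log2 difference −0.15, SE 0.14, 95% CI −0.46 to 0.15). PPP1CA (ENSG00000172531, chr11:67165654-67188654), the alpha isozyme, had 104, 69.4 and 95.4 CPM under the mimic against 104, 83.7 and 116 CPM under the control (log2 difference −0.17, SE 0.18, 95% CI −0.56 to 0.21). PPP1CB (ENSG00000213639, chr2:28974506-29025806), the beta isozyme of myosin phosphatase, had 148, 134 and 119 CPM under the mimic against 158, 120.3 and 112 CPM under the control (log2 difference 0.04, SE 0.16, 95% CI −0.31 to 0.39). PPP1CC and PPP1CA thus leaned lower and PPP1CB stood level, and none passed. In edgeR the unadjusted p was 0.302, 0.342 and 0.795 in that order, with an adjusted p of 0.999 for each.

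Per length, PPP1CC made up 47.8 to 56.8% of the catalytic transcripts, PPP1CA 26.0 to 35.2% and PPP1CB 11.6 to 17.2%. Set against this catalytic sum, PPP1R14B stood at 21.0, 19.0 and 23.4% under the mimic against 34.0, 33.5 and 35.6% under the control in date order. The control values lay close together and above all mimic values. PPP1R14C, by the same measure, stood at 13.3, 17.4 and 19.0% under the mimic against 14.5, 15.1 and 16.9% under the control, and its groups overlapped. Against PPP1CA alone, PPP1R14B had 0.598, 0.729 and 0.735 times its TPM under the mimic against 1.11, 1.10 and 1.01 times under the control. So PPP1R14B exceeded PPP1CA in the 3 control libraries and in 0 of the mimic libraries. A ratio of this kind needs no scaling between libraries, but it rests on the same counts that chose PPP1R14B.

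**Figure D2:**
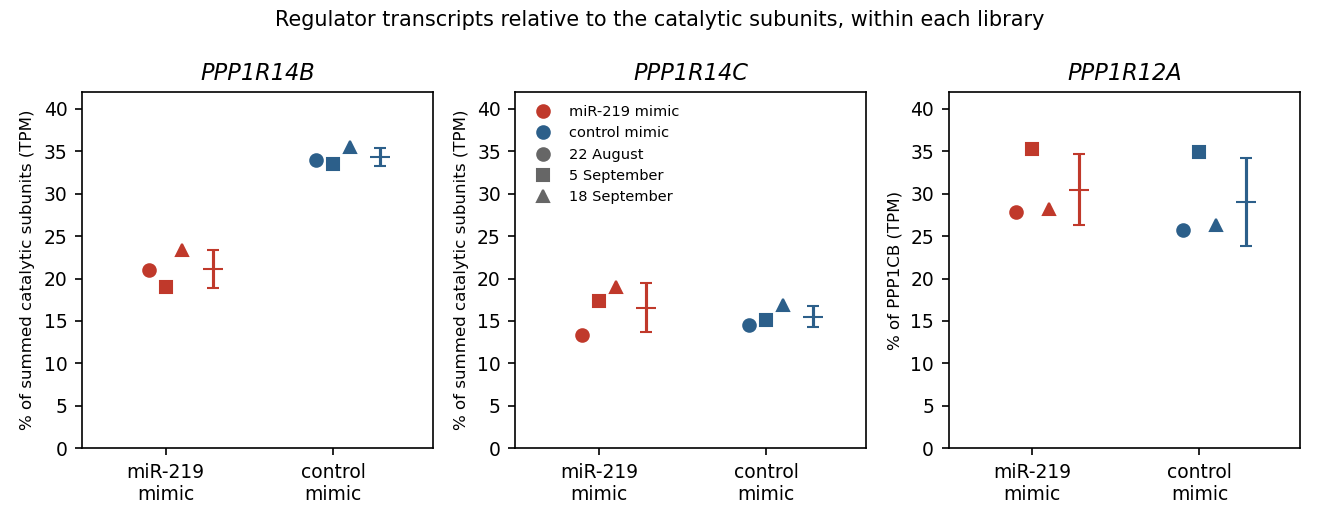
TPM of PPP1R14B and PPP1R14C as a percentage of summed PPP1CA, PPP1CB and PPP1CC, and of PPP1R12A as a percentage of PPP1CB, in each library (colour, mimic; shape, date; bars, mean ± SD, n = 3). PPP1R14B has 19.0 to 23.4% under the mimic against 33.5 to 35.6% under the control, and the other 2 panels overlap.

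Over both groups, the order of levels per length was PPP1CC (246 ± 31.0 TPM, SD over 6 libraries), PPP1CA (145 ± 22.7), PPP1R14B (129 ± 43.1), PPP1R11 (97.3 ± 4.62), PPP1R14C (74.0 ± 14.3), PPP1R8 (72.9 ± 8.05), PPP1CB (68.7 ± 6.39), PPP1R2 (33.5 ± 3.56), PPP1R12A (20.5 ± 3.84) and PPP1R14A (0.637 ± 0.472). PPP1CC was above PPP1CA in 6 of 6 libraries. The place of PPP1R14B followed the groups that chose it: its mean was 92.4 ± 17.7 TPM under the mimic and 166 ± 17.2 under the control (SD, n = 3 each), and PPP1CA exceeded it in the 3 mimic libraries only. Lower in the order, PPP1R14C exceeded PPP1R8 in 3 of 6 libraries, and PPP1R8 exceeded PPP1CB in 3, so these neighbours did not keep 1 order. PPP1R2, PPP1R12A and PPP1R14A held the last places in every library. The spread of PPP1R14B over the 6 libraries holds the difference between its groups.

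The remaining inhibitors leaned lower by small amounts. PPP1R8 (ENSG00000117751, chr1:28157289-28178187), a nuclear inhibitor that also binds the spliceosome, had 72.6, 67.3 and 74.8 CPM under the mimic against 79.4, 72.8 and 85.5 CPM under the control (log2 difference −0.15, SE 0.13). PPP1R2 (ENSG00000184203, chr3:195241221-195270209), a heat-stable inhibitor, had 41.3, 43.4 and 44.9 CPM under the mimic against 52.4, 43.6 and 45.6 CPM under the control (log2 difference −0.13, SE 0.13). PPP1R11 (ENSG00000204619, chr6:30034486-30038110), an inhibitor that also has ubiquitin ligase activity, had 72.7, 57.6 and 63.8 CPM under the mimic against 72.9, 61.7 and 67.7 CPM under the control (log2 difference −0.06, SE 0.14). All 3 had log2 ratios below 0 on each date, as did PPP1CA, but some were nearly 0. These were PPP1CA (−0.0012) and PPP1R11 (−0.0030) on 22 August and PPP1R2 (−0.0056) on 5 September. The largest gap of the 3 inhibitors was in PPP1R2 on 22 August (log2 ratio −0.34), and the groups of each overlapped. A log2 ratio below 0 on all 3 dates was met by 14.4% of tested genes.

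PPP1R12A (ENSG00000058272, chr12:80167343-80329240), the subunit that brings the beta isozyme to myosin, leaned the other way. It had 48.3, 55.4 and 39.4 CPM under the mimic against 47.6, 49.2 and 34.3 CPM under the control, and was the one member above its control on every date (log2 difference 0.13, SE 0.17, 95% CI −0.25 to 0.51). A ratio above 0 on all dates was met by 15.6% of tested genes. Relative to PPP1CB, its TPM stood at 27.9, 35.3 and 28.2% under the mimic against 25.7, 35.0 and 26.3% under the control, with the highest value of both groups on 5 September.

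Of the 8 tested members other than PPP1R14B, 0 passed over all genes in edgeR (adjusted p = 0.999 for each), against 0% called over all genes. At an unadjusted p under 0.05 they numbered 0, beside 3.01% of all tested genes. With the date as a block the smallest adjusted p among them was 0.824. Their log2 differences ran from −0.17 to 0.13, 6 below 0 and 2 above, with a median of −0.09 beside 0.00 for all tested genes. The intervals ran from −0.56 at the lowest to 0.51 at the highest, so a 2-fold change was left out for each of these 8, and smaller ones were not. DESeq2 and limma-voom also called 0 of the 8.

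**Figure D3:**
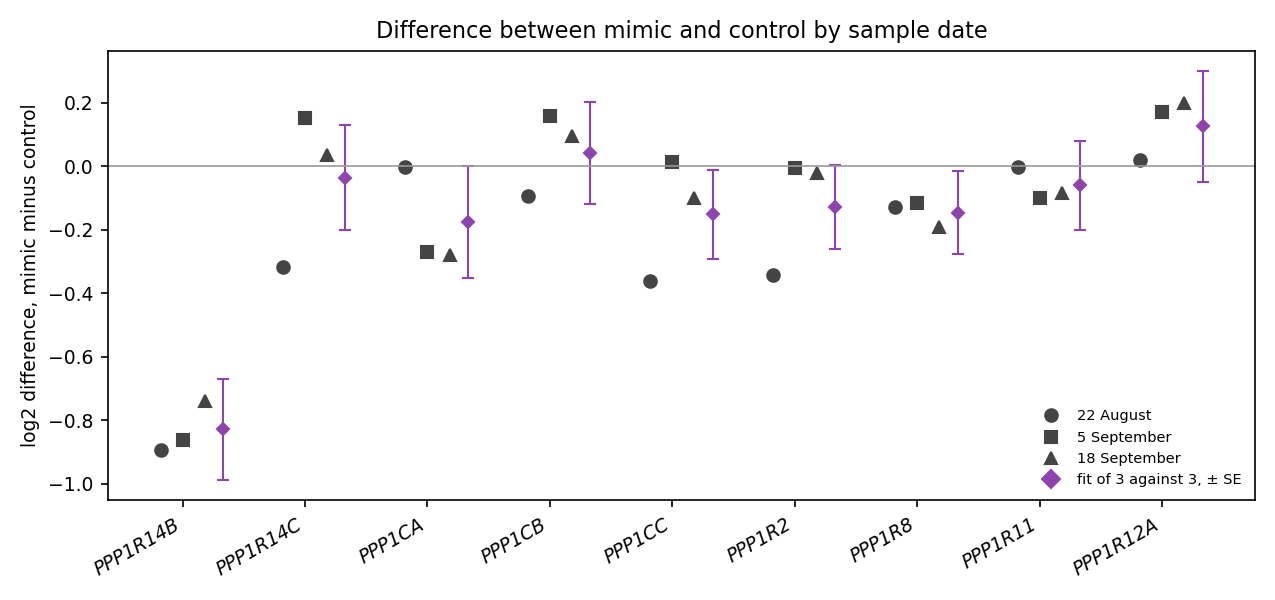
Log2 difference between mimic and control for the 9 tested members on each sample date (dark markers) and from the fit of 3 against 3 libraries (diamonds, ± SE). PPP1R14B lies between −0.74 and −0.89 on the 3 dates, and the points of every other member lie from −0.36 to 0.20.

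Dates were not used to choose any member, and no member passed the test of a difference between dates. For PPP1R12A the log2 difference of 18 September from the other dates was −0.45 (SE 0.11), and for PPP1CB, its catalytic partner, it was −0.28 (SE 0.11). On 5 September PPP1CA stood at −0.46 (SE 0.12) and PPP1R14B at −0.36 (SE 0.11). PPP1R14C had its highest value on 18 September, at 0.35 (SE 0.13). Over all genes 50 of 16233 (0.308%) differed between dates by edgeR with adjusted p under 0.05, and 0 of 9 members were called by edgeR, DESeq2 or limma-voom with all 6 libraries. The smallest adjusted p was 0.33, for PPP1R12A.

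At an unadjusted p under 0.05, 4 of 9 members differed between dates (PPP1R12A 0.0127, PPP1CA 0.0164, PPP1R14B 0.0317 and PPP1CB 0.0357 in edgeR's quasi-likelihood test), beside 13.2% of all tested genes. Gene length moved with date too: genes of similar length to PPP1R14B had a median date difference of −0.13 on 5 September and 0.15 on 18 September, and those of similar length to PPP1R12A (3834 to 8577 bases, n = 5493) had 0.09 and −0.11. With the length trend removed, the difference of PPP1R12A on 18 September was −0.34, that of PPP1CB −0.21, and those of PPP1CA and PPP1R14B on 5 September −0.35 and −0.28. None of the 4 then had an unadjusted p under 0.05 in edgeR (0.0645, 0.0613, 0.0666 and 0.0905 in that order), beside 11.5% of all tested genes. With DESeq2 only PPP1CA and PPP1R12A did (2 of 9 members, beside 8.60% of genes), while PPP1R14B had 0.0755 and PPP1CB 0.0578. With a library left out the number of members at that level ranged from 0 to 5, and it was 0 without either library of 18 September. The adjusted calls also depended on the library left out: without the mimic library of 22 August 4 members passed (PPP1CA, PPP1CB, PPP1R12A and PPP1R14B), as did 4 without the control library of that date (PPP1CA, PPP1R12A, PPP1R14B and PPP1R14C), where 2783 and 4239 genes passed in all. Those fits leave 1 library on that date, taken to vary like the others. Interferon-induced genes also set 22 August apart, with summed levels of 1166 and 1056 CPM against 119 to 174 CPM in the other libraries.

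**Figure D4:**
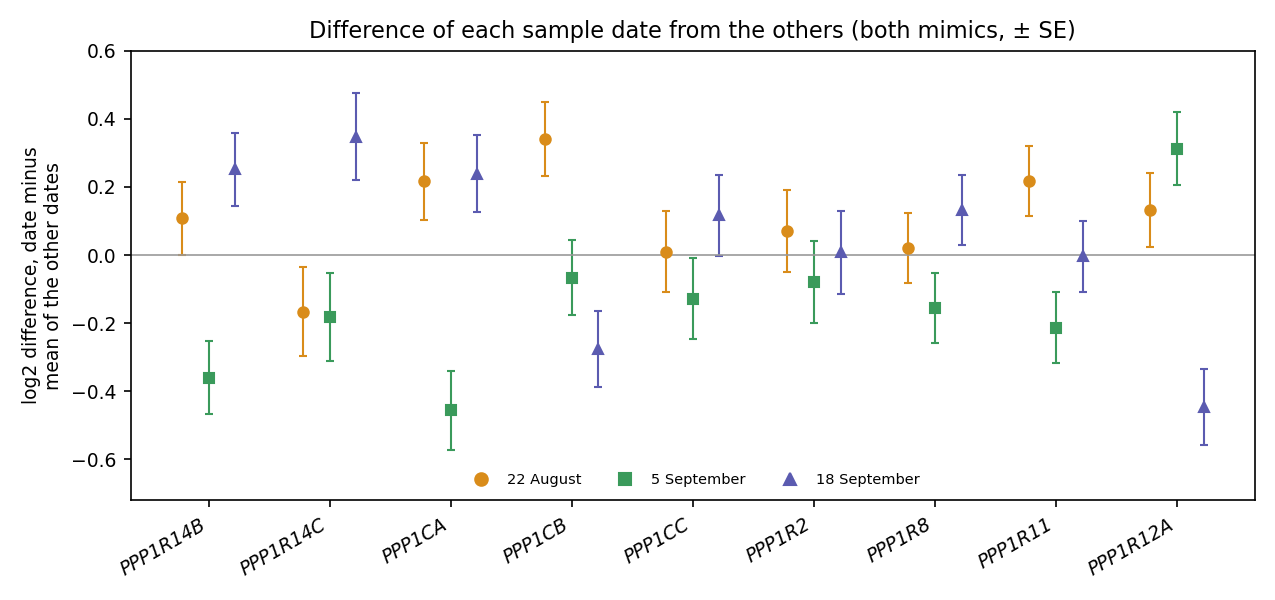
Log2 difference of each sample date from the mean of the other dates for the 9 tested members, from the fit with mimic and date as terms (± SE). PPP1CA (−0.46) and PPP1R14B (−0.36) are lowest on 5 September, and PPP1R12A (−0.45) and PPP1CB (−0.28) on 18 September.

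On chromosome 11, PPP1R14B lies between FKBP2, a prolyl isomerase of the endoplasmic reticulum 351 bases from its 3′ side, and PLCB3, a phospholipase C 4581 bases from its 5′ side. Including these, 6 other genes within 20 kb were tested. FKBP2 had 12.0 ± 0.664 CPM under the mimic against 12.4 ± 2.18 CPM under the control (log2 difference −0.05, SE 0.17), and PLCB3 had 21.6 ± 3.35 and 23.2 ± 2.17 CPM (−0.11, SE 0.16). VEGFB, a vascular growth factor, had 0.00 (SE 0.16), the tRNA phosphotransferase gene TRPT1 had −0.27 (SE 0.22), the chaperone gene DNAJC4 −0.10 (SE 0.24) and NUDT22 −0.05 (SE 0.22). None of the 6 passed in edgeR (0 called, adjusted p = 0.999 for each).

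Genes that overlap PPP1R14B or carry its name had few counts of their own. An antisense gene (RP11-783K16.5) overlaps 978 bases of the PPP1R14B span and had at most 1 count per library. On the same strand RP11-783K16.13 overlaps 3 bases and had at most 5. The pseudogene PPP1R14BP3 had 7, 9 and 9 counts under the mimic against 9, 10 and 9 under the control, and PPP1R14BP2 and PPP1R14BP5 had 0 in all. Reads that fit both a gene and its copy may have been dropped or given to either, which the counts do not show. The same holds for reads where genes overlap, as the strand setting of the counting is not given. PPP1R2 has 8 pseudogenes in the table, with at most 2 counts per library each. PPP1CA shares 228 bases with RAD9A (301 to 533 counts) and PPP1R11 shares 68 bases with RNF39 (61 to 104 counts), both on the other strand. The span of PPP1CA also overlaps CARNS1 (6216 bases, at most 11 counts) and TBC1D10C (6175 bases, at most 5), again on the other strand. PPP1CB overlaps SPDYA on the same strand (20424 bases, 5 to 20 counts). Genes that overlap PPP1R12A lie on the other strand, and the most counted, RP11-84G21.1, had at most 16 counts.

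**Figure D5:**
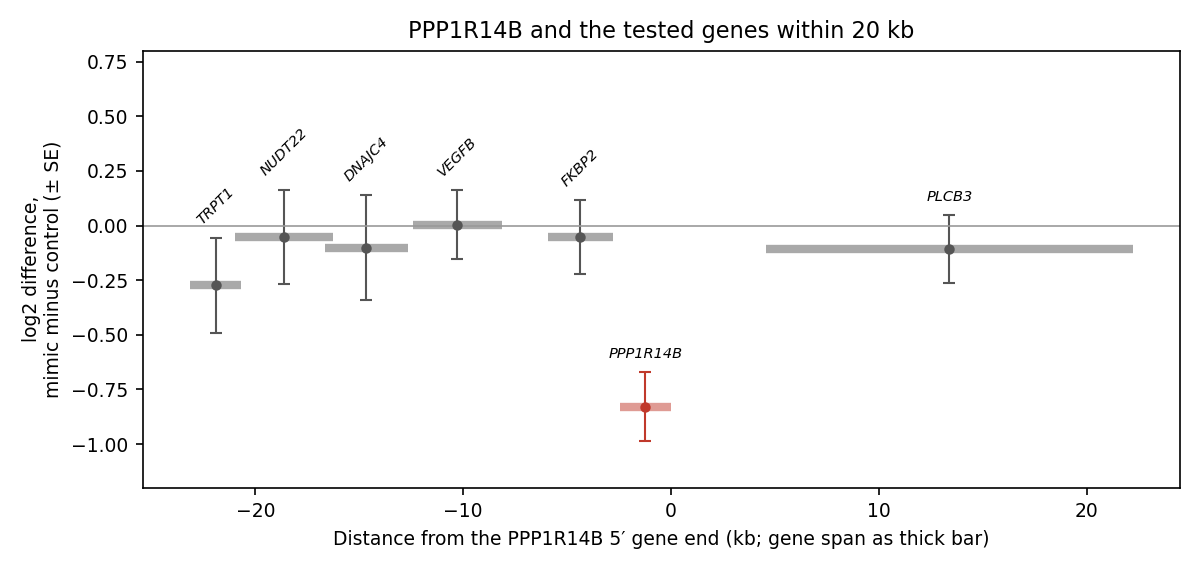
Log2 difference between mimic and control (± SE) for PPP1R14B and the 6 tested genes within 20 kb, against distance from the 5′ end of PPP1R14B. PPP1R14B lies at −0.83, and its neighbours lie between −0.27 and 0.00.

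The genes whose log2 CPM over the 6 libraries was most like that of PPP1R14B, among those with a mean of at least 10 CPM, were B3GNT1, RAI2, ACTB, MRPL55 and GARS, with Pearson r from 0.988 to 0.996. Since likeness to PPP1R14B selects genes that are low under the mimic and low on 5 September, these values are a description. All 5 had smaller log2 differences than PPP1R14B. The glycosyltransferase gene B3GNT1 had 32.3 ± 3.15 CPM under the mimic against 45.1 ± 3.07 CPM under the control (log2 difference −0.48), and RAI2, a retinoic acid-induced gene, had 36.0 ± 4.13 and 51.4 ± 2.77 CPM (−0.51). ACTB, the cytoplasmic beta-actin, had 2954 ± 251 and 3761 ± 183 CPM (−0.35). Within the set, PPP1R8 was nearest to PPP1R14B (r = 0.879 over 6 libraries that differ in depth and span 3 dates), and PPP1R12A was opposed (r = −0.56). Both values include the difference between mimics that chose PPP1R14B. Genes of similar length to PPP1R14B had median date differences of −0.13 on 5 September and 0.15 on 18 September. Those of similar length to PPP1R12A had 0.09 and −0.11. The part of gene length in these correlations was not tested.

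Of 33 further genes named PPP1R, 26 were tested, and 0 passed in either direction by edgeR. More of them lay above 0 (18) than below (8), with a median log2 difference of 0.05 beside 0.00 for all genes. The median was 0.19 on 22 August, −0.04 on 5 September and 0.02 on 18 September. Genes of similar length to PPP1R12A (3834 to 8577 bases, n = 5493) had a median of 0.05, and 0.16 on 22 August. Of those genes, 35.2% lay below 0. The part of gene length in the values of these PPP1R genes, or of the partners below, was not tested. At an unadjusted p under 0.05, 2 were higher and 0 lower: PPP1R16B (0.0362) and PPP1R21 (0.0484; log2 difference 0.31, SE 0.14). With PPP1R3D, a glycogen-targeting subunit, these were the 3 with every mimic library above every control library, as for 4.22% of tested genes. In the opposite direction there were 0, beside 3.84% of tested genes. PPP1R16B, a membrane-anchored relative of PPP1R12A, was the highest at 0.89 (SE 0.38) but scarce, with 1.29 ± 0.529 CPM under the mimic against 0.700 ± 0.198 CPM under the control. PPP1R7, a nuclear regulator, was the lowest at −0.27 (SE 0.17; 65.7 against 79.4 CPM). PPP1R15A, the stress-induced subunit that directs the phosphatase to eIF2-alpha, had −0.17 (SE 0.21). Among 28 partners with other names, 20 were above 0 and 8 below (median 0.04, with 0.13 on 22 August and 0.00 and 0.03 on the later dates), from the actin-binding PHACTR3 (−0.58, SE 0.50) to BRCA1 (0.30, SE 0.16), and again 0 passed.

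Myosin light chain pathway genes, on which PPP1R14 inhibitors and PPP1R12A act, lay on both sides of 0. Of 24 tested, 11 were above 0 and 13 below, with a median of −0.01, and 0 passed. MYL6, an essential myosin light chain, was the lowest at −0.30 (SE 0.17; 99.3 against 122 CPM) and the heavy chain MYH14 the highest at 0.40 (SE 0.24; 21.9 against 16.6 CPM). RHOA, the GTPase that activates ROCK kinases, had −0.18 (SE 0.15).

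Catalytic subunits of related phosphatases had a median of −0.12, with 5 of 8 tested genes below 0 and 0 passing. The median was −0.37 on 22 August, and 0.05 and 0.00 on the later dates. PPP4C was the lowest, with 117, 114 and 121 CPM under the mimic against 157, 136 and 148 CPM under the control. Its groups did not overlap (log2 difference −0.33, SE 0.13, edgeR unadjusted p = 0.0262, adjusted p = 0.999). It was the 1 gene of these 8 with an unadjusted p under 0.05 in edgeR, beside 3.01% of all tested genes. PPP2CA, the alpha catalytic subunit of protein phosphatase 2A, also had every mimic library below every control library (−0.24, SE 0.15), as did 3.84% of tested genes. PPP3CA, a calcineurin catalytic subunit, was the highest at 0.24 (SE 0.13), with every mimic library above every control library, as for 4.22% of tested genes. Scaffolds and inhibitors of protein phosphatase 2A had a median of −0.02 over 9 genes, from the scaffold PPP2R1A (−0.17) to the methylesterase PPME1 (0.08), and 0 passed.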

How the data were processed

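Counts per gene from 6 libraries were used as the authors deposited them. STAR 2.5 (alignment, hg19) and HTSeq 0.6.1 (counting) are named in the submitters' processing notes. Groups and dates came from the labels, and 0 columns were left unmapped. Members and gene lists were chosen with earlier results of these data known.

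The main test was edgeR 4.0.16 in R 4.3.3, by quasi-likelihood F (TMM, filterByExpr with min.count 10 and min.total.count 15), 3 against 3 without a block, and Benjamini-Hochberg adjustment over 16233 genes with a threshold of 0.05. Date differences came from a fit with mimic and date. Alternatives used DESeq2 1.42.0 and limma 3.58.1 (limma-voom). Standard errors are the log2 difference over the square root of F. CPM used TMM-scaled library sizes, log2 ratios per date a prior count of 2, and TPM the gene length in the table. The length trend was removed by loess per library. Genes of similar length were within 0.67 to 1.5 times. No 2 libraries agreed within sampling noise.

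Libraries were paired by the date in the labels. Deviations of same-date libraries from their group means correlated at 0.0466, 0.154 and 0.513 in date order.

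Named genes were the members, the lowest and highest gene of each pathway list, genes within 20 kb of PPP1R14B, like-named genes, and the 5 genes most like PPP1R14B. PPP1R14D, PPP1R15A and RHOA were named after their values were seen. The code was tested on simulated counts. Figures used matplotlib 3.10.9.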

Additional observations from a re-analysis of the deposited data

How the results depend on the processing

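PPP1R14B lay between −0.94 and −0.71 over 15 alternatives, below 0 in each. These alternatives reuse the counts that chose PPP1R14B, so its constant sign is a description and no support for the difference. Calls between mimics (0 higher, 0 lower) became 6 higher and 14 lower without a filter on counts, 2 and 3 by DESeq2, and 4 and 7 by DESeq2 plus the replicate block by date. They were 0 and 0 with the replicate block in edgeR, and from 0 to 0 with any library left out. Genes that differed between dates numbered 576 without a filter and 164 by DESeq2 in place of 50, and from 55 to 4239 with a library left out, with 0 to 4 members among them. The block changed no call of a member. Directions of members near 0 reversed. With the length trend removed PPP1R14C was 0.0053 and PPP1CB −0.023. With a library left out PPP1R14C ranged from −0.18 to 0.083, PPP1CB from −0.057 to 0.21, PPP1R11 from −0.15 to 0.018 and PPP1R12A from −0.021 to 0.24. The cause was not tested. With 3 libraries per group, small differences could not be seen.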
